A study of Homo sapiens with 8 samples.

Results

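The genes described here are the DNA replication and mitosis genes of the cell cycle, followed in ovarian cancer cells grown as adherent bulk cultures or as spheres, with or without manipulation of Matrix Gla Protein (MGP). They were taken from a fixed list of 37 symbols, all of which are among the 20339 genes of the raw count table. Of the 37, 14 act in S phase, when the genome is copied (MCM2, MCM3, MCM4, MCM5, MCM6, MCM7, CDC6, CDC45, GINS2, PCNA, RRM2, TYMS, E2F1 and E2F2). The other 23 act in G2 and mitosis or switch on genes that do (CCNA2, CCNB1, CCNB2, CDK1, AURKA, AURKB, PLK1, BUB1, BUB1B, CDC20, UBE2C, CENPA, CENPE, CENPF, KIF11, KIF20A, KIF23, TPX2, BIRC5, TOP2A, MKI67, FOXM1 and MYBL2).

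RNA-seq was carried out on 8 libraries, 1 per condition, from OVCAR3 and COV318, established human ovarian carcinoma lines derived from ascites. By the labels, OVCAR3-MGPKO cells are knocked out for MGP and OVCAR3-CTR cells are their control, all at passage 4. Per the study's methods, the knock-out was made by CRISPR-Cas9 with a pair of guides and came from isolated clones. By the labels, COV318-MGP cells overexpress MGP and COV318-CTR cells are their control, all at passage 18. Per the study's methods, COV318-MGP cells carry a lentiviral MGP cDNA and COV318-CTR cells the empty vector, both selected with puromycin. Each of these 4 populations was sequenced once as bulk and once as OCSC, the cells of non-adherent spheres that the study uses as ovarian cancer stem-like cells. Line, passage and bulk medium cannot be told apart. Per the study's methods, spheres differ from bulk at once in attachment, base medium, serum, low-density seeding, and an added supplement, EGF and FGF2. Which knock-out clone was sequenced is not given in the sources used here. In bulk RNA, more cells in a phase and more RNA per cell in that phase cannot be told apart.

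Before the results, the state of the libraries is given. Total counts on genes ranged from 12294591 to 37393919. MGP had 40393 and 28694 counts in COV318-MGP bulk and OCSC, against 1 and 0 in COV318-CTR. In OVCAR3 it had 0 and 1 counts in the controls and 0 and 2 in the libraries labelled OVCAR3-MGPKO, so its level does not check that label. The libraries labelled COV318-MGP stood apart. Across genes, which are not independent replicates, log2(normalized count + 1) in these libraries correlated with the COV318-CTR libraries at a Pearson's r of 0.747 to 0.757, and with the OVCAR3 libraries at 0.771 to 0.786. Each other pair of bulk and OCSC of a population correlated at 0.959 to 0.968, and COV318-MGP bulk with its own OCSC at 0.971. The Müllerian factor PAX8 and the keratin KRT7 had 0 counts in both COV318-MGP libraries, where the COV318-CTR libraries had 3342 to 6778 and 614 to 19478. KRT19 and MUC16, also among the 8 epithelial markers listed, had at most 3 counts there. In COV318-MGP bulk and OCSC, KRT8 had 556 and 983 counts, KRT18 2573 and 4810, CDH1 417 and 99, and EPCAM 47 and 22. Against COV318-CTR, KRT8 and KRT18 had a log2FC of -1.07 and -3.78 in bulk, but of 3.15 and 0.95 in OCSC. CDH1 had -0.25 and -1.37 in bulk and OCSC, and EPCAM -5.75 and -4.89. Whether the libraries labelled COV318-MGP come from the same line as those labelled COV318-CTR is thus in doubt and was not tested. The names COV318-MGP and COV318 below follow the labels, and every comparison with these libraries carries that difference and that doubt. Of the 6 fibroblast and mesothelium markers, COL1A2, PDGFRB, DCN and LUM had at most 118 counts in any library, and COL1A1 had 7 to 505. The summed level of the list was 217 to 5767 normalized counts, highest in COV318-CTR bulk, where COL3A1 made up 10409 counts. The leukocyte marker CD68 had 13 to 67 counts, and the endothelial genes PECAM1 and VWF had 2 to 39 and 1 to 1231. The other markers listed, PTPRC and CD3E of leukocytes and CDH5 of endothelium, were not among the counted genes.

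As background, cells license DNA in G1 by loading the MCM2-7 ring onto origins with the help of CDC6. The ring becomes an active helicase when CDC45 and the GINS complex join it, PCNA then holds the polymerases on DNA, and RRM2 and TYMS supply deoxynucleotides. E2F factors, released from RB proteins, switch on this set of genes at the start of S phase. Mitotic genes come later. Their promoters commonly carry CCAAT boxes bound by NF-Y and a cell cycle homology region (CHR) through which the DREAM complex holds them down in resting cells, and MYBL2 with the MuvB core and FOXM1 raises them in G2. Proliferating tumor cells, ovarian carcinoma included, express both groups at high levels.

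The promoters of the members show this division. Of the 6 printed, MCM2, CDC6, E2F1 and AURKB belong to genes that differed between the COV318 libraries, and PLK1 to the gene with the lowest p in the comparison of lines. CCNB2, the member with the smallest range over the libraries, is shown for its run of CCAAT boxes before a CHR word. Promoters of 300 bases, from 250 before to 50 after the annotated start, were taken from RefSeq (GRCh38.p14) and found for 12 of 14 S-phase and 18 of 23 mitotic genes. Those of MCM4, MCM5, AURKA, TPX2, BIRC5, UBE2C and FOXM1 were not in the table. They were searched on both strands for E2F words (TTTCCCGC, TTTGGCGC, TTTGCCGC, TTTCGCGC), the CHR word TTTGAA with its variant TTCGAA, and the box CCAAT. The variant reads the same on both strands, and the E2F words can overlap one another head to head. The capitals mark the words found, each line is written 5′ to 3′ on the gene's strand, and the base after position 250 is the start. The windows of S-phase genes are MCM2 at chr3:127598161-127598460 (plus strand), CDC6 at chr17:40287629-40287928 (plus strand) and E2F1 at chr20:33686336-33686635 (minus strand). Those of mitotic genes are CCNB2 at chr15:59104896-59105195 (plus strand), PLK1 at chr16:23678639-23678938 (plus strand) and AURKB at chr17:8210176-8210475 (minus strand).
MCM2: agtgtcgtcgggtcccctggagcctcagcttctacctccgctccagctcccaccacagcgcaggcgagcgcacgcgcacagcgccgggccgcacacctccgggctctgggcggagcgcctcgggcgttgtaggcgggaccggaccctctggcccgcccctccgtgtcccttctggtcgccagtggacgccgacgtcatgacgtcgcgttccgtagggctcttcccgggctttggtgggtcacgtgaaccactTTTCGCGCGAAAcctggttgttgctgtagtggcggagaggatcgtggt
CDC6: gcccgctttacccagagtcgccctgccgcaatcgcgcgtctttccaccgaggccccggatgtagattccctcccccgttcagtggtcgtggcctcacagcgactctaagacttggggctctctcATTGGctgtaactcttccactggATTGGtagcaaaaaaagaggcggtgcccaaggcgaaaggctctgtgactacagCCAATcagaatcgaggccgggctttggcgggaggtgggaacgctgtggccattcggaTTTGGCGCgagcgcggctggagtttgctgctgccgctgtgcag
E2F1: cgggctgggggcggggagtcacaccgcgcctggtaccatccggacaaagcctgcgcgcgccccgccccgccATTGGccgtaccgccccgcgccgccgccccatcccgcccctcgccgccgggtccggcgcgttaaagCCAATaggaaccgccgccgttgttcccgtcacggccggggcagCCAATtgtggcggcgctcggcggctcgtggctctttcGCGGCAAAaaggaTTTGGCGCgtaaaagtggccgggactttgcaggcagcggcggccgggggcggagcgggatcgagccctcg
CCNB2: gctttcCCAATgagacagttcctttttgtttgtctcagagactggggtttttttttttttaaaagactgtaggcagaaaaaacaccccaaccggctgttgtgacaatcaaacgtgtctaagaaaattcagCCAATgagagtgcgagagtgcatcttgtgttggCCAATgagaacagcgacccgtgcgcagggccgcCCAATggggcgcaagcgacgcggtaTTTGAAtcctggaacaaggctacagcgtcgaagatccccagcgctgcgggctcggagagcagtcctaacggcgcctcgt
PLK1: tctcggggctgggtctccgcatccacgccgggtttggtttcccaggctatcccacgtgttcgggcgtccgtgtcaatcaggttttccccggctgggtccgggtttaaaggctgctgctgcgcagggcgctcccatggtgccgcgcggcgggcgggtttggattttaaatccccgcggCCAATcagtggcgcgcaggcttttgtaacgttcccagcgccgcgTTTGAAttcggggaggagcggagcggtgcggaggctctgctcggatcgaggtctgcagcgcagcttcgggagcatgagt
AURKB: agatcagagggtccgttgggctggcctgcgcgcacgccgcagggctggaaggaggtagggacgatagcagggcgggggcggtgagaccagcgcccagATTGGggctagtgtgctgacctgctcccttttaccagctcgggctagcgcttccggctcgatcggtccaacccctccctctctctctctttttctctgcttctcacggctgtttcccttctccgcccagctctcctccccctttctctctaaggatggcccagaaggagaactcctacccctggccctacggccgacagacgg
MCM2 and CDC6, a ring subunit and the ring loader, hold their E2F words just after the start, those of MCM2 overlapping head to head. E2F1, which encodes the factor itself, has a pair of E2F words before its start. CCNB2, the B-type cyclin, has 4 CCAAT boxes followed by a CHR word, PLK1 has a CCAAT box followed by a CHR word, and AURKB has a single CCAAT box.

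Over the members, an E2F word was present in 10 of 12 S-phase promoters and in 2 of 18 mitotic promoters, those of CDK1 and CENPA. It was present in 3.33% of all 27305 promoters of this length, and in 4.86% of those of counted genes. In wider lists that hold no member, 14 of 43 replication promoters (32.6%) and 2 of 44 mitosis promoters had an E2F word. A CHR word was present in 12 of 18 mitotic promoters and in 1 of 12 S-phase promoters, that of MCM6. It was present in 16.6% of all promoters and in 12.4% of those of counted genes. In the wider lists, 32 of 44 mitosis and 4 of 43 replication promoters had a CHR word. CCAAT was common to both groups, with 15 of 18 mitotic and 9 of 12 S-phase promoters against 35.7% of all. A CHR word and CCAAT together were found in 11 of 18 mitotic and 1 of 12 S-phase promoters, against 6.58% of all. A word is a match of letters and not a binding site, and no test was made on these shares.

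All members but E2F2 were strongly expressed. Per kilobase of exon, PCNA, the sliding clamp, was highest with a mean over the 8 libraries of 2459 normalized counts per kb, followed by TOP2A, which untangles DNA, at 2053, and the helicase subunits MCM7 at 1772 and MCM3 at 1613. Excluding E2F2, the lowest were the kinesin CENPE at 184 and the mitotic kinase PLK1 at 194. E2F2 had 2 to 25 counts per library and a mean of 2.05 normalized counts per kb, and it is counted in the medians and counts over S-phase genes below. As shares of all counts, the 37 genes made up 0.414% to 0.907% of a library, lowest in OVCAR3-MGPKO OCSC and highest in COV318-MGP bulk.

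**Figure D1:**
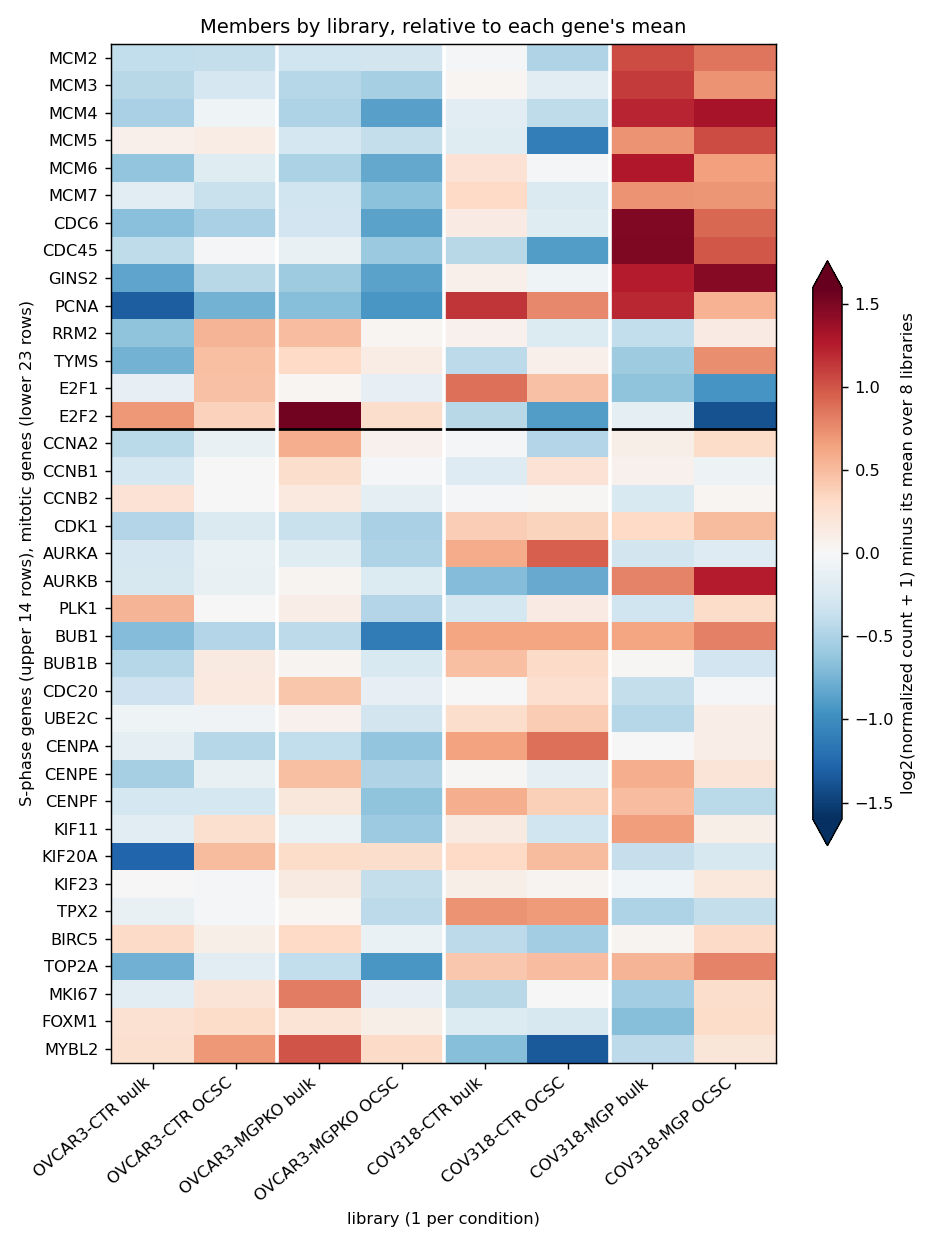
Each square is a gene (vertical axis) in a library (horizontal axis), and its colour is log2(normalized count + 1) minus the gene's mean over the 8 libraries, with red above and blue below the mean. The 2 columns of COV318-MGP are red from MCM2 to GINS2, and the column of OVCAR3-MGPKO OCSC is mostly blue in both groups, with 15 of the 37 genes at their lowest there.

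The first comparison asked whether S-phase and mitotic genes differ between spheres and bulk. No member was called. By edgeR's quasi-likelihood test with the population as a block, 0 of 37 members, and 0 of 15586 genes tested (0.0%), passed an adjusted p of 0.05 in spheres against bulk, while at an unadjusted p under 0.05 there were 1 member and 1207 genes. DESeq2 called 247 genes and 0 members. The 4 pairs stand for 4 populations of 2 lines and not for repeat cultures.

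The fitted changes were small. Over the 37 members, the fitted log2 change of spheres against bulk ran from -0.92 for E2F2 and -0.50 for CENPF, a kinetochore protein, to 0.48 for KIF20A, a kinesin of cytokinesis, and 0.70 for TYMS. For MCM4 it was -0.02, with a 95% interval of -0.47 to 0.42, and for CDK1, the mitotic kinase, 0.04, with an interval of -0.34 to 0.42. TYMS, thymidylate synthase, was the member with an unadjusted p under 0.05, and its interval was 0.06 to 1.35, with an edgeR adjusted p of 0.623.

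TYMS went from 449 normalized counts in OVCAR3-CTR bulk to 1059 in OCSC, from 567 to 807 in COV318-CTR and from 514 to 1274 in COV318-MGP. In OVCAR3-MGPKO it went the other way, from 950 to 822. The log2FC of the 4 pairs were 1.24, 0.51, 1.31 and -0.21 in that order. Exons of TYMS overlap those of ENOSF1 and TYMSOS on the opposite strand by up to 967 of 2421 bases, and the strand setting of the counting is not given in the sources used here, so reads of the overlap may be assigned to either gene. ENOSF1 had a log2FC of -0.86, 0.51, -1.01 and -0.09 in the same 4 pairs.

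A common change was not detected, which does not show that there was none, since the 95% intervals reached 1.20 for KIF20A and 1.35 for TYMS. The values of the single populations follow. In OVCAR3-CTR, 29 of 37 members were higher in spheres (48.5% of all genes were), with a median log2FC of 0.39 over S-phase and 0.22 over mitotic genes. In OVCAR3-MGPKO, 36 of 37 were lower, so that 1 was higher beside 48.4% of all genes, and the medians were -0.29 and -0.44. In COV318-CTR, 12 of 37 were higher (46.6% of all genes), with medians of -0.35 over S-phase and -0.04 over mitotic genes. In COV318-MGP, 23 of 37 were higher (47.6% of all genes), with medians of -0.25 and 0.20, the latter at -0.01 when libraries were scaled by their totals. The median over all genes was 0 in each pair. In both COV318 populations the S-phase genes were thus lower in spheres by median, with 13 of 14 lower in COV318-CTR and 9 of 14 in COV318-MGP.

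**Figure D2:**
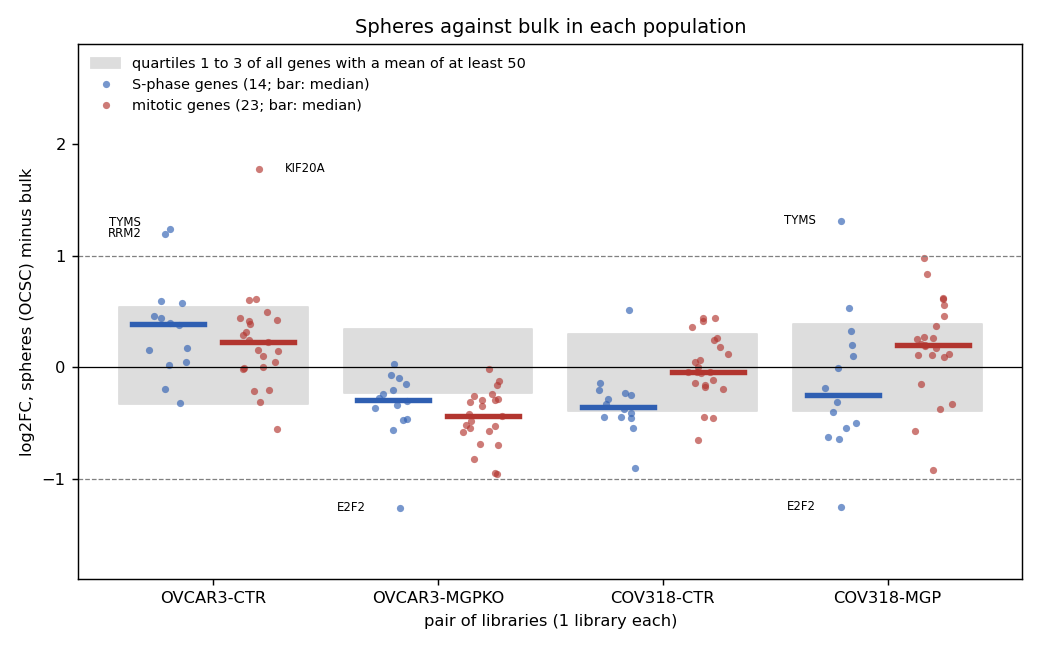
Points are genes, placed by their log2FC of spheres minus bulk (vertical axis) in each population (horizontal axis). Bars are medians of the S-phase (blue) and mitotic (red) genes, and grey boxes run from the first to the third quartile of all genes with a mean of at least 50 normalized counts. Both bars are above 0 in OVCAR3-CTR and below 0 in OVCAR3-MGPKO, and named genes passed a log2FC of 1 in size.

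Few members changed by 2-fold. In OVCAR3-CTR 3 of 37 passed a log2FC of 1 in size, against 28.2% of all genes. In OVCAR3-MGPKO it was 1 of 37 against 19.8%, in COV318-CTR 0 of 37 against 22.2%, and in COV318-MGP 2 of 37 against 20.7%. These shares of members are all below the background. Beside TYMS, the members past it upwards were KIF20A and RRM2 in OVCAR3-CTR, and E2F2 passed it downwards in OVCAR3-MGPKO and COV318-MGP, where its count was 13 against 25 and 2 against 15. A count of 2 is under the floor of 3, and the counting interval of the COV318-MGP ratio, -4.70 to 0.58 on the log2 scale, includes no change.

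KIF20A had 1049 normalized counts in OVCAR3-CTR bulk and 3593 in OVCAR3-CTR OCSC. In the libraries labelled OVCAR3-MGPKO it had 3113 in bulk and 3069 in OCSC, in COV318-CTR 3166 and 3583, and in COV318-MGP 1959 and 2112. The log2FC of 1.78 in OVCAR3-CTR (counting interval 1.66 to 1.90) therefore rests on a single low library, OVCAR3-CTR bulk. RRM2, the regulated subunit of ribonucleotide reductase, followed the same order within OVCAR3, with 2563 in OVCAR3-CTR bulk against 5857 in OCSC, and 5648 and 4100 in OVCAR3-MGPKO bulk and OCSC. In COV318-CTR it had 4200 and 3440, and in COV318-MGP 3046 and 4401.

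The next comparison asked whether the sphere change itself differs between OVCAR3 and COV318. By edgeR's test of the interaction of line and culture, 0 of 37 members passed, against 2 of 15586 genes (0.0128%), and 1 member had an unadjusted p under 0.05. That member was PLK1, the kinase that drives mitotic entry. PLK1 went from 1318 normalized counts in bulk to 895 in OCSC in OVCAR3-CTR and from 972 to 649 in OVCAR3-MGPKO. It went from 739 to 985 in COV318-CTR and from 724 to 1107 in COV318-MGP. The sphere change was thus lower in OVCAR3 by 1.07 on the log2 scale (SE 0.35), with an edgeR adjusted p of 0.509. Exons of PLK1 overlap those of ERN2 on the opposite strand by 553 of 4760 bases, but ERN2 had at most 20.8 normalized counts. MKI67, the antigen of proliferating cells, was next in size, with a difference of -0.90 (SE 0.48, adjusted p 0.672). It had 3374 and 4407 normalized counts in bulk and OCSC of OVCAR3-CTR, 6708 and 3480 in OVCAR3-MGPKO, 2814 and 3807 in COV318-CTR, and 2601 and 4655 in COV318-MGP, so that OVCAR3-MGPKO alone went down.

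Within OVCAR3, the control and knock-out populations moved in opposite directions between cultures. Of the 23 mitotic genes 17, and of the 14 S-phase genes 11, were higher in spheres of OVCAR3-CTR and lower in spheres of OVCAR3-MGPKO, a pattern shown by 17.6% of all genes. Among genes outside the members, 37 of 51 other mitosis genes and 31 of 50 other replication genes showed it. The exceptions among mitotic genes were CCNB2, PLK1, CENPA, CENPF, KIF23 and BIRC5, which had a log2FC below 0 in both, and among S-phase genes MCM7 and E2F2, also below 0 in both, and MCM2, at 0.02 in both. Each pattern rests on 4 libraries with no repeat, and the difference between the populations was not tested.

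The same libraries, read as knock-out against control, gave opposite signs in the 2 cultures. These comparisons share their libraries with those above and add no independent values. In bulk, 30 of 37 members had more normalized counts in the OVCAR3-MGPKO than in the control library (48.8% of all genes did), with medians of 0.28 over mitotic and 0.22 over S-phase genes. In OCSC, 2 of 37 were higher (47.1% of all genes), with medians of -0.34 and -0.39, and the 2 were CCNA2, cyclin A, and MCM2. Past a log2FC of 1 in size were 5 of 37 in bulk against 26.0% of all genes, and 0 of 37 in OCSC against 15.0%. Of genes with a mean of at least 50 normalized counts, 9.58% passed it upwards and 6.55% downwards in bulk. In OCSC it was 4.38% and 3.83% of these genes. The 5 in bulk were KIF20A at 1.57, RRM2 at 1.14, TYMS at 1.08, CENPE at 1.02 and CCNA2 at 1.01, of which KIF20A, RRM2, TYMS and CENPE were at their lowest in the shared OVCAR3-CTR bulk library.

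CENPE, which links chromosomes to microtubules, had 1215 normalized counts in OVCAR3-CTR bulk, 1620 in OCSC, and 2458 and 1264 in OVCAR3-MGPKO bulk and OCSC. CCNA2 had 1408 and 1746 in OVCAR3-CTR and 2840 and 1980 in OVCAR3-MGPKO. Exons of CCNA2 overlap those of EXOSC9 on the opposite strand by 254 of 2748 bases. EXOSC9 had a log2FC of 0.56 in bulk and 0.16 in OCSC of OVCAR3-MGPKO against control. MYBL2, the G2 activator, had 2621 and 3560 in OVCAR3-CTR and 4408 and 2724 in OVCAR3-MGPKO. In CENPE, CCNA2 and MYBL2 the highest OVCAR3 library was OVCAR3-MGPKO bulk. The OVCAR3-MGPKO OCSC library lay between the OVCAR3-CTR ones for CENPE and MYBL2 and above both for CCNA2. Over all 37 members, 15 were at their lowest of 8 libraries in OVCAR3-MGPKO OCSC, where 7.70% of all genes with a mean of at least 50 normalized counts were.

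The largest differences were found between the COV318 libraries. In the libraries labelled COV318-MGP the genes that load and start the replication helicase were higher than in COV318-CTR in both cultures, by median 2-fold over the S-phase genes, whereas the mitotic genes were spread about 0. The median log2FC over S-phase genes was 0.99 in bulk and 0.92 in OCSC, against -0.09 and 0.16 over mitotic genes. The medians over all genes were -0.01 and 0. No test was made, since by the labels the COV318-MGP cells of both cultures are the same population.

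Among the S-phase genes, 7 of 14 had a log2FC of at least 1 in bulk and 6 of 14 in OCSC, against 24.1% and 26.7% of all genes. In both cultures it was 5 of 14, namely MCM2, MCM4, CDC6, CDC45 and GINS2, against 17.5% of all genes. Among mitotic genes it was 1 of 23, AURKB. Counting either direction, 10 of 37 members passed a log2FC of 1 in size in bulk and 11 in OCSC, against 49.8% and 54.0% of all genes. Of genes with a mean of at least 50 normalized counts, 18.8% passed it upwards and 22.0% downwards in bulk, and 22.7% and 22.9% in OCSC. Members past it were thus fewer, as a share, than genes in general, and 20 of 37 in bulk and 25 of 37 in OCSC were higher, against 48.9% and 48.6% of all genes.

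**Figure D3:**
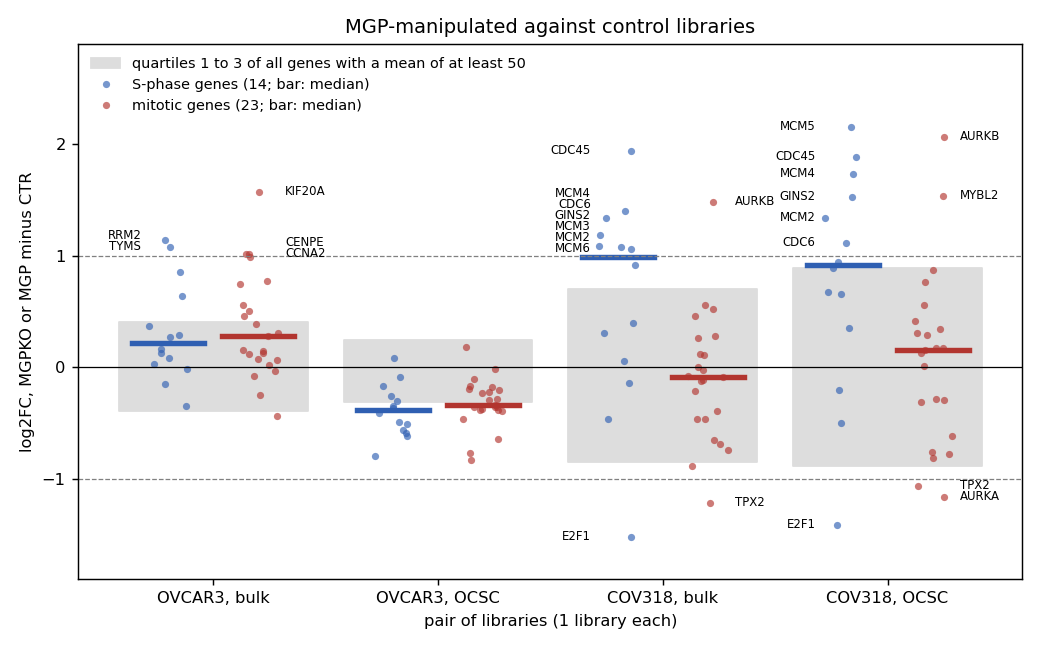
Points are genes, placed by their log2FC of the MGP-manipulated minus the control library (vertical axis) in each line and culture (horizontal axis), with the same bars and grey boxes as in the plot of spheres against bulk. The S-phase bars of COV318 lie at 0.99 and 0.92 while the mitotic bars lie at -0.09 and 0.16, and in OVCAR3 both bars are above 0 in bulk and below 0 in OCSC.

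By role, all 6 helicase subunits were higher in COV318-MGP. MCM2 had 3112 and 2283 normalized counts in COV318-CTR bulk and OCSC, 6551 and 5756 in COV318-MGP, and 2405 to 2582 in OVCAR3. MCM4 had 3640 and 3097 in COV318-CTR, 9611 and 10284 in COV318-MGP, and 2264 to 3934 in OVCAR3. MCM5 had 1553 and 828 in COV318-CTR, 2935 and 3680 in COV318-MGP, and 1371 to 1935 in OVCAR3. In all of them both COV318-MGP libraries were above the 6 others. The log2FC ran from 0.40 (MCM7) to 1.40 (MCM4) in bulk and from 0.67 (MCM6) to 2.15 (MCM5) in OCSC. For MCM5 in OCSC, part of the size lies in the COV318-CTR OCSC library, the lowest of the 8 for this gene. Exons of MCM2 overlap those of a non-coding RNA on the opposite strand by 1113 of 4715 bases. Those of MCM7 overlap AP4M1 on the opposite strand by up to 392 of 4960 bases. AP4M1 had a log2FC of -1.35 and -0.81 in bulk and OCSC. How far reads of these overlaps enter the counts was not tested.

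The partners of the ring moved with it. CDC6, the loader, had 1822 and 1452 normalized counts in COV318-CTR bulk and OCSC, 4610 and 3147 in COV318-MGP, and 912 to 1346 in OVCAR3. CDC45, which joins the ring to make the active helicase, had 820 and 599 in COV318-CTR, 3141 and 2213 in COV318-MGP, and 741 to 1095 in OVCAR3. GINS2, a GINS subunit, had 780 and 706 in COV318-CTR, 1773 and 2037 in COV318-MGP, and 409 to 543 in OVCAR3. The log2FC of CDC45, 1.94 in bulk (counting interval 1.86 to 2.02) and 1.88 in OCSC (1.73 to 2.05), was the largest of the S-phase genes in bulk and the second largest in OCSC.

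PCNA, RRM2 and TYMS differed less or with opposite signs in the 2 cultures. PCNA had 6217 and 4776 normalized counts in COV318-CTR bulk and OCSC and 6464 and 4131 in COV318-MGP, a log2FC of 0.06 and -0.21, while the OVCAR3 libraries had 1119 to 1747. RRM2 had a log2FC of -0.46 in bulk and 0.36 in OCSC, and TYMS of -0.14 and 0.66, the latter beside 0.67 for MCM6. E2F1, the factor upstream, was lower, with 4517 and 3403 in COV318-CTR against 1574 and 1270 in COV318-MGP, a log2FC of -1.52 (counting interval -1.58 to -1.46) and -1.42 (-1.54 to -1.31). In OVCAR3 it had 2234 to 3380. E2F1 was the only member with both COV318-MGP libraries below the 6 others. E2F words were found in the promoters of E2F1, MCM2, MCM3, MCM6, MCM7, CDC6, GINS2, PCNA, TYMS and E2F2, but not of CDC45 and RRM2. Promoters of MCM4 and MCM5 were not available. The words were thus found both in genes that were higher in COV318-MGP and in genes that were not, and a link was not tested.

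Among mitotic genes, the members of the chromosomal passenger and spindle kinase systems diverged. AURKB, the kinase of the passenger complex, had 475 and 438 normalized counts in COV318-CTR bulk and OCSC, 1332 and 1834 in COV318-MGP, and 640 to 791 in OVCAR3, a log2FC of 1.48 and 2.06. AURKA, the spindle pole kinase, had 3741 and 4809 in COV318-CTR, 2017 and 2147 in COV318-MGP, and 1759 to 2288 in OVCAR3, a log2FC of -0.89 and -1.16. TPX2, which activates AURKA on the spindle, had 7830 and 7572 in COV318-CTR, 3360 and 3623 in COV318-MGP, and 3557 to 4823 in OVCAR3, a log2FC of -1.22 and -1.06. For AURKA and TPX2 the COV318-CTR libraries were the high ones, above all 6 others, and for AURKB the COV318-MGP libraries were.

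The other mitotic genes had log2FC of less than 1 in size, except MYBL2 in OCSC. MYBL2 had 1373 and 871 normalized counts in COV318-CTR bulk and OCSC and 1641 and 2520 in COV318-MGP, a log2FC of 0.26 and 1.53. FOXM1, the other G2 activator, had 1399 and 1360 against 1015 and 2000, a log2FC of -0.46 and 0.56. Exons of FOXM1 overlap those of ITFG2 by 782 of 4919 bases. CCNA2 had a log2FC of 0.11 and 0.76, and EXOSC9, whose exons overlap those of CCNA2, of 0.46 and 0.97. BIRC5, survivin of the passenger complex, had a log2FC of 0.46 and 0.87. CCNB1, CCNB2 and CDK1, the kinase of mitotic entry and its cyclins, stayed between -0.31 and 0.28. BUB1 and BUB1B of the spindle checkpoint lay between -0.62 and 0.17, and CDC20 and UBE2C, which drive the degradation of mitotic proteins, between -0.74 and -0.29. CENPA, the centromere histone, and KIF20A were lower by a like size in both cultures, at -0.65 and -0.78 and at -0.69 and -0.76. The kinetochore proteins CENPE and CENPF lay between -0.82 and 0.56, the kinesins KIF11 and KIF23 between -0.13 and 0.52, and MKI67 and TOP2A between -0.11 and 0.30.

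**Figure D4:**
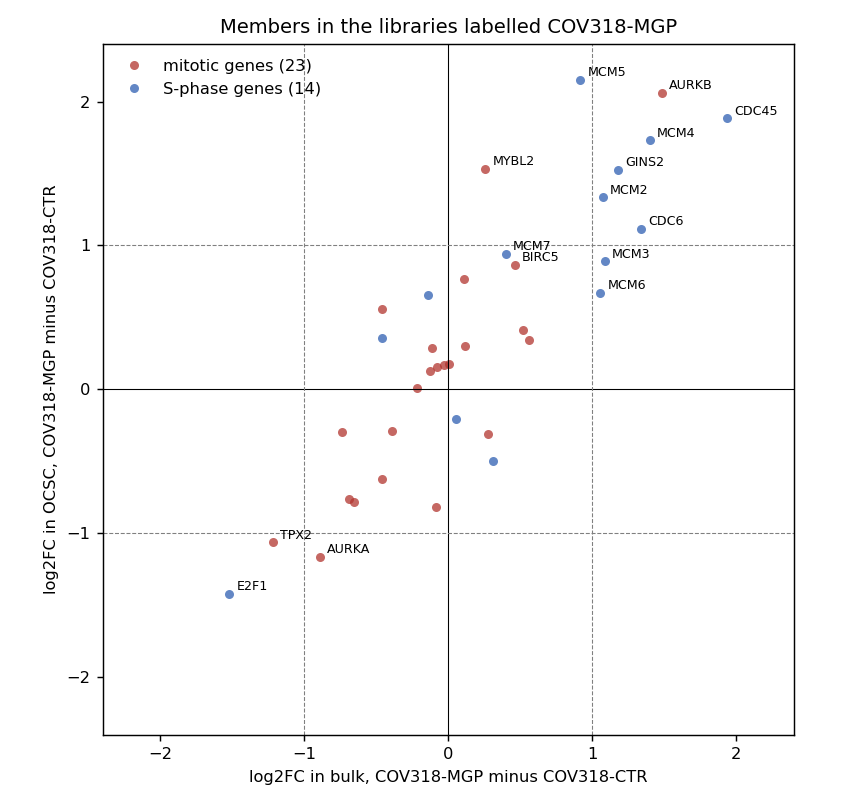
Each point is a gene, with its log2FC of COV318-MGP minus COV318-CTR in bulk (horizontal axis) and in OCSC (vertical axis). Dashed lines mark a log2FC of 1 in size. CDC45, MCM4, GINS2, MCM2, CDC6 and AURKB lie in the upper right corner and E2F1 and TPX2 in the lower left.

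Over the libraries, both COV318-MGP libraries were above the 6 others for 12 of 37 members, 9 of them S-phase genes, against 19.2% of all genes. The 9 were MCM2 to MCM7, CDC6, CDC45 and GINS2, and the mitotic ones were AURKB, TOP2A and BUB1, the last by 3355 against 3348 normalized counts. Both were below the 6 others for 1 of 37, E2F1, against 16.2% of all genes. Of the 50 other replication genes, 32 were above in both, and of the 51 other mitosis genes, 21 were.

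Lines differed too, with passage and bulk medium. All 4 libraries labelled COV318 were above all 4 OVCAR3 libraries for 9 of 37 members (TOP2A, CDK1, BUB1, CENPA, MCM3, MCM6, PCNA, CDC6 and GINS2), against 14.9% of all genes. They were below for 2 of 37, MYBL2 and E2F2, against 16.6%. PCNA showed the widest gap, with 1119 to 1747 normalized counts in OVCAR3 and 4131 to 6464 in COV318. TOP2A had 6278 to 10693 in OVCAR3 and 16194 to 20890 in COV318. Neither gap depended on the libraries labelled COV318-MGP, since the COV318-CTR libraries alone had 4776 to 6217 for PCNA and 16194 to 16922 for TOP2A.

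The groups were also set against each other within each library. The median over mitotic genes minus the median over S-phase genes, each gene taken as log2(normalized count + 1) relative to its mean over the 8 libraries, was -1.09 in the bulk and -0.57 in the OCSC library of COV318-MGP. Exact order-statistic intervals were taken for the median of each group over its members. Subtracting their opposite ends gave wide ranges that included 0, at -1.66 to 0.72 and -1.07 to 0.16. These ranges are not exact intervals of the difference and have no stated coverage, so their inclusion of 0 decides nothing. They also treat the members of a library as independent draws, which genes of a single library are not. In the 6 others the difference of the medians was 0.04 to 0.46, lowest in COV318-CTR bulk and highest in OVCAR3-MGPKO bulk. Between bulk and OCSC it rose in both COV318 populations, from 0.04 to 0.44 in COV318-CTR and from -1.09 to -0.57 in COV318-MGP, and fell in both OVCAR3 ones, from 0.22 to 0.12 and from 0.46 to 0.27. Since each gene is taken relative to its mean over all 8 libraries, low values in COV318-MGP raise those of the 6 others. These are descriptions of single libraries, with no test.

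**Figure D5:**
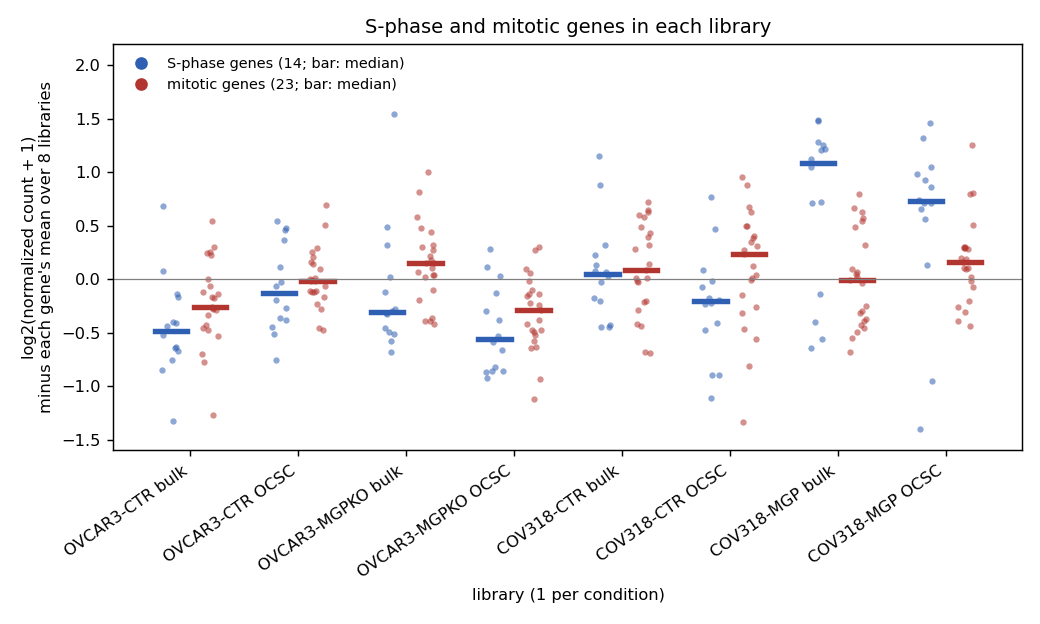
Points are genes, placed by log2(normalized count + 1) relative to the gene's mean over the 8 libraries (vertical axis) in each library (horizontal axis), with bars at the medians of the S-phase (blue) and mitotic (red) genes. The S-phase bars lie above the mitotic ones in both COV318-MGP libraries, by 1.09 and 0.57, and below them in the 6 others.

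The other genes of the same pathways were taken from wider lists that hold no member. The 50 other replication genes had a median log2FC of 1.04 in bulk and 1.06 in OCSC in COV318-MGP against COV318-CTR, with 28 and 26 of 50 at 1 or above, and 24 of 50 in both cultures. The 51 other mitosis genes had medians of 0.27 and 0.31, with 5 and 6 of 51 at 1 or above. In bulk 34 of 51 of them were higher, against 9 of 23 mitotic members with a median of -0.09. In COV318-MGP spheres against bulk their median was -0.03, against 0.20 over the mitotic members. In spheres against bulk, edgeR called 0 of 50 replication and 0 of the 49 mitosis genes it could test, with 2 and 0 at an unadjusted p under 0.05, and DESeq2 called 0 of each. By the naming rule for these lists, the replication genes lowest in spheres on average were TIPIN, a fork protection factor, and USP1, a deubiquitinase of PCNA. The highest were the licensing factor CDT1 and the DNA ligase LIG1. CDT1 had a log2FC of 1.34 and 2.79 in COV318-MGP against COV318-CTR in bulk and OCSC, TIPIN of 2.45 and 1.23, LIG1 of 1.05 and 1.09, and USP1 of 0.62 and -0.34. Of the mitosis genes, CKS1B and ASPM were lowest in spheres on average, at -0.32 and -0.31, and CDCA3 and CKS2 highest, at 0.32 and 0.24.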

How the data were processed

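RNA-seq of 8 libraries, 1 per condition, was analysed. Per the labels and the study's methods, total RNA was sequenced as paired reads on a HiSeq2000 and aligned to hg38 with STAR 2.7.5c, and gene counts were normalized by the median of ratios. Poly-A, ribosomal depletion and capture kits are all named without saying which was used, and the annotation and strand setting are not given in the sources used here. The deposited raw counts per gene were tested, and the deposited normalized counts (signal values, counts divided by size factors) differed from values recomputed here by less than 0.0001. No gene had fewer than 10 counts in every library, so the authors' table appears filtered.

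The members and lists were chosen with earlier results of these data known. log2FC is the difference of log2(normalized count + 1). Counting intervals are exact Clopper-Pearson intervals at 95% of the ratio of 2 counts, and like the floor of 3 counts they cover counting error only. The population block was used because the bulk and OCSC libraries of a population deviate together from their culture means (r 0.767 to 0.871 over 15586 genes) and come from the same cells. edgeR 4.0.16 (R 4.3.3, TMM, filterByExpr, quasi-likelihood test, Benjamini-Hochberg over all genes tested) fitted culture with 3 residual degrees of freedom and its interaction with line with 2. DESeq2 1.42.0, other scalings, filters, pseudocounts and thresholds were alternatives. The edgeR p-values measure the spread of the sphere change over populations, within lines for the interaction, with variances moderated across genes. The 95% intervals of the fitted changes use the moderated degrees of freedom, which exceed the residual ones. edgeR was tested on simulated data. With 1 library per arm and culture, no test of the MGP manipulation was made. Exon lengths are from GENCODE 44. The genes named are all members and, from each other list, the 2 highest and 2 lowest by mean log2FC of spheres against bulk among genes with a mean of at least 50 normalized counts.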

Additional observations from a re-analysis of the deposited data

Results flagged for a closer look

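The median log2FC of spheres against bulk had opposite signs in the OVCAR3 populations, at 0.22 in OVCAR3-CTR and -0.44 in OVCAR3-MGPKO over mitotic genes and at 0.39 and -0.29 over S-phase genes. The medians of manipulated against control libraries had opposite signs in the lines for mitotic genes in bulk (0.28 in OVCAR3 and -0.089 in COV318), for mitotic genes in OCSC (-0.34 and 0.16) and for S-phase genes in OCSC (-0.39 and 0.92). Opposite signs of single medians brought these up, the differences were not tested, and in COV318 bulk the mitotic median turned to 0.21 when libraries were scaled by their totals. No group has 4 or more samples, so no group was screened for a library far from the rest.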

How the results depend on the processing

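The count of members called was 0 in spheres against bulk under all 9 alternatives and in the interaction with line under all 7, DESeq2 included. Over all genes, spheres against bulk gave 15 calls with no filter on low counts and 247 with DESeq2. The interaction with line gave 11 and 179, and 0 to 24 when 1 population was left out, with 1 without OVCAR3-CTR, 0 without OVCAR3-MGPKO, 24 without COV318-CTR and 8 without COV318-MGP. Without the replicate block no gene was called, with culture alone or with line. The mitotic median of COV318-MGP spheres was 0.084 with TMM and -0.0092 with CPM, and that of COV318-MGP against COV318-CTR in bulk was 0.21 with CPM, which moved the median of all genes by -0.17 and 0.23. The causes of these changes were not tested.

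Counts of members past the threshold changed with it. At 1.5-fold they were 6, 6, 2 and 9 in spheres against bulk of OVCAR3-CTR, OVCAR3-MGPKO, COV318-CTR and COV318-MGP, 10 and 6 in OVCAR3-MGPKO against control in bulk and OCSC, and 21 in COV318-MGP against control in OCSC. At a log2FC of 2 they were 0 in each comparison but the last, which had 2. By a counting interval without 0 they were 29, 34, 29 and 34 in spheres, and 27, 33, 34 and 35 in manipulated against control. Such an interval covers counting error only and leaves out 0 for very small changes. MCM3 in OVCAR3-MGPKO spheres, with a log2FC of -0.07 (-0.135 to -0.005), was counted in this way. Shares of all genes were not taken for these 3 settings, so the counts show nothing particular to the members. OVCAR3-MGPKO spheres had 3 with CPM and 0 with a pseudocount of 10 or a mean of at least 50. COV318-MGP spheres had 1 with a pseudocount of 5 or 10 or a mean of at least 50. OVCAR3-MGPKO against control in bulk had 3 when scaled within the pair. With TMM, chosen after seeing the data, 2 members in place of 1 were below the 6 other libraries in COV318-MGP, and with CPM 1 in place of 2 was lower in all COV318 than in all OVCAR3 libraries. At these depths, E2F2 was the member whose counts limit any statement.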

Other observations

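Replication-dependent histone genes, a group outside the members that is made in S phase, were looked at after the other values were seen. The 62 of them in the table made up 0.385% to 0.709% of counts, and the kit used, on which the recovery of these mostly non-polyadenylated RNAs depends, is not given in the sources used here. Their median log2FC of spheres against bulk in OVCAR3-CTR was -0.14 (36 of 62 lower), in OVCAR3-MGPKO -0.71 (58 lower), in COV318-CTR -0.30 (52 lower) and in COV318-MGP -0.26 (39 lower). In COV318-MGP against COV318-CTR the median was -0.22 in bulk and -0.64 in OCSC, opposite in sign to the S-phase members, and 24 and 28 of 62 (38.7% and 45.2%) had a log2FC of -1 or below, against 25.7% and 27.3% of all genes. At 3 counts or fewer were 18 and 21 of the 62 in the COV318-MGP libraries, against 3 to 6 in the others. The linker histone H1-5 had 7702 and 1741 counts in COV318-CTR, 0 in both COV318-MGP libraries and 0 to 3 in OVCAR3.

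Growth arrest genes, of which 17 were in the table, had a median log2FC of spheres against bulk of 0.75 and 0.43 in the OVCAR3 control and knock-out, and of -0.30 and 0.37 in the COV318 control and MGP populations. The edgeR test called 0 of the 16 it could test in spheres against bulk and 0 in the interaction with line, with 1 and 4 at an unadjusted p under 0.05, and DESeq2 called 0 and 2. CDKN1A, which encodes the CDK inhibitor p21, had 14.5 normalized counts in COV318-CTR bulk and 290 in OCSC, 663 and 571 in COV318-MGP, 205 and 377 in OVCAR3-CTR, and 146 and 443 in OVCAR3-MGPKO. CDKN2C, another CDK inhibitor, had 58.6 and 419 in OVCAR3-CTR, 114 and 322 in OVCAR3-MGPKO, 1821 and 1424 in COV318-CTR, and 1195 and 968 in COV318-MGP. The stress genes GADD45A and GADD45B were lower in spheres in OVCAR3-CTR, OVCAR3-MGPKO and COV318-CTR, with log2FC from -2.62 to -0.59, and higher in COV318-MGP, at 1.33 and 3.62.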
